A study of Mus musculus with 30 samples.

Results

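Axon injury and regeneration genes are described here in mouse dorsal root ganglia after chemotherapy. The set has 10 genes, Atf3, Sox11, Jun, Gal, Npy, Cckbr, Gap43, Gadd45a, Ecel1 and Flrt3, taken by symbol from the 56686 genes of the deposited table. RNA came from lumbar ganglia L3 to L5 of both sides of wild-type male C57BL/6J mice, whose age and doses are not given in the sources used here. On day 8 the mice had received CVAD (a regimen of cyclophosphamide, vincristine, doxorubicin and dexamethasone), cyclophosphamide, vincristine, doxorubicin, dexamethasone or saline. On day 2 they had received CVAD, cyclophosphamide, dexamethasone or saline. Each of these 10 groups has 3 libraries, and the labels do not say whether a library is 1 animal or a pool, so p-values measure only the spread between these libraries, which may be technical. Replicate numbers below only name libraries.

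When the axon of a sensory neuron is cut or damaged, stress kinases signal back to the cell body and a set of genes is switched on there. Atf3, Jun and Sox11 encode transcription factors of this response. Gal and Npy encode neuropeptides that injured sensory neurons make, and Cckbr encodes a receptor for cholecystokinin and gastrin that is also induced by nerve injury. Ecel1 encodes a membrane protease of injured neurons, Gap43 a protein of growth cones, Flrt3 an adhesion and guidance molecule, and Gadd45a a small protein of the response to cellular stress. In an uninjured ganglion Gap43, Jun and some Gal are present, and Atf3, Npy, Cckbr and Ecel1 are low.

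Promoters are shown because the transcription factors of the set act through short DNA elements. Of the 10 genes, 9 had a 300-base promoter window in the RefSeq table (build GRCm38.p6; 250 bases before the transcript start and 50 after it). Both strands were searched for the AP-1 element TGANTCA, the related element TGACNTCA, and TGACGTAA, with N standing for any base; these 3 motifs were chosen after the windows had been read. TGACNTCA was found in Sox11, Jun and Flrt3, which is 3 of the 9 windows, against 8.83% of all 32851 promoters. TGACGTAA was found in Atf3 alone, against 0.499% of all promoters. TGANTCA was in 0 of the 9 windows and in 7.81% of all promoters. Because the motifs were chosen after reading these windows, the shares of all promoters give no test of enrichment. The stretches that hold a match follow, read on the strand of the gene, with the matched bases in capitals. They lie at chr1:191183334-191183383 (Atf3), chr12:27342719-27342800 (Sox11), chr4:95052223-95052307 (Jun) and chr2:140671477-140671557 (Flrt3), all on the minus strand, and end before the transcript start.
Atf3 promoter: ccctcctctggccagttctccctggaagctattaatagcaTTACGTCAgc
Sox11 promoter: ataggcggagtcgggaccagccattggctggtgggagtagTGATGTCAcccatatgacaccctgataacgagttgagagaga
Jun promoter: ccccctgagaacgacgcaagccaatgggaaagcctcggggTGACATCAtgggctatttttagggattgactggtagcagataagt
Flrt3 promoter: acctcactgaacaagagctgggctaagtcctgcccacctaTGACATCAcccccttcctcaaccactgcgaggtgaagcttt
The match begins 10 bases before the start in Atf3, 42 in Sox11, 45 in Jun and 41 in Flrt3. In Sox11 and Flrt3 the first 50 transcribed bases of the RefSeq window were not in a GENCODE transcript of the gene, so those starts rest on RefSeq alone. A match describes the letters in the window and not the binding of a factor.

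Levels are in TPM (transcripts per 1000000, corrected for length and library size), so they can be compared between genes. Read numbers are not given in the sources used here, so depth and counting error are unknown, and a value listed at 0 may be a failed estimate (the 37 mitochondrial genes had 0 TPM throughout). The tissue label was checked with 11 sensory neuron markers, which were all present and summed to 1945 to 2789 TPM per library. The sums were 623.4 to 828.6 TPM for 6 satellite glia markers, 1229 to 1801 TPM for 6 markers of myelinating Schwann cells and 163.6 to 278.6 TPM for 8 macrophage markers. A list of 10 spinal cord genes, of which Aqp4 was at 0 throughout, set a pair of libraries apart: it summed to 108.3 TPM in saline day 2 replicate 3 and to 87.3 TPM in doxorubicin day 8 replicate 3, against 6.85 to 63.1 TPM in the others. A list of 10 skeletal muscle genes, Pvalb among them, ran from 85.0 to 1040 TPM and was also highest in saline day 2 replicate 3. Fold changes named for the 10 genes against saline on day 2 are also given without that saline library. Fold changes of the other gene lists against saline on day 2 include it.

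Over all 30 libraries Gap43 (ENSMUSG00000047261) was the most abundant gene of the set, with 100.6 TPM in the lowest library, a median of 119.1 and 139.3 in the highest. Jun (ENSMUSG00000052684) followed at 52.99 to 81.55 TPM with a median of 66.5, and Gal (ENSMUSG00000024907) at 29.8 to 60.0 TPM with a median of 41.2. Gadd45a (ENSMUSG00000036390), the stress-response gene, lay between 17.2 and 33.6 TPM, Flrt3 (ENSMUSG00000051379) between 16.4 and 24.03, and Sox11 (ENSMUSG00000063632) between 10.1 and 16.6. Atf3 (ENSMUSG00000026628), on chromosome 1, varied most among the genes present in every library, between 7.32 and 32.6 TPM, or 4.46 times from lowest to highest, where Gap43 varied 1.39 times. Ecel1 (ENSMUSG00000026247), also on chromosome 1, ran from 0 in 1 library to 11.7 TPM. Cckbr (ENSMUSG00000030898) was above 0 in 19 libraries and reached 2.37 TPM, and Npy (ENSMUSG00000029819) was above 0 in 9 libraries and reached 10.4 TPM. The share of a gene's spread, in log2(TPM + 1), that lay between the 10 groups was 59.1% for Cckbr, 48.3% for Atf3, 47.3% for Gal, 46.5% for Jun, 38.7% for Ecel1, 35.1% for Flrt3, 34.3% for Sox11, 31.6% for Npy, 22.9% for Gap43 and 15.1% for Gadd45a. The median over all tested genes was 28.7%, and 5% of genes lay above 52.3%, with Cckbr the only one of the set beyond that.

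**Figure D1:**
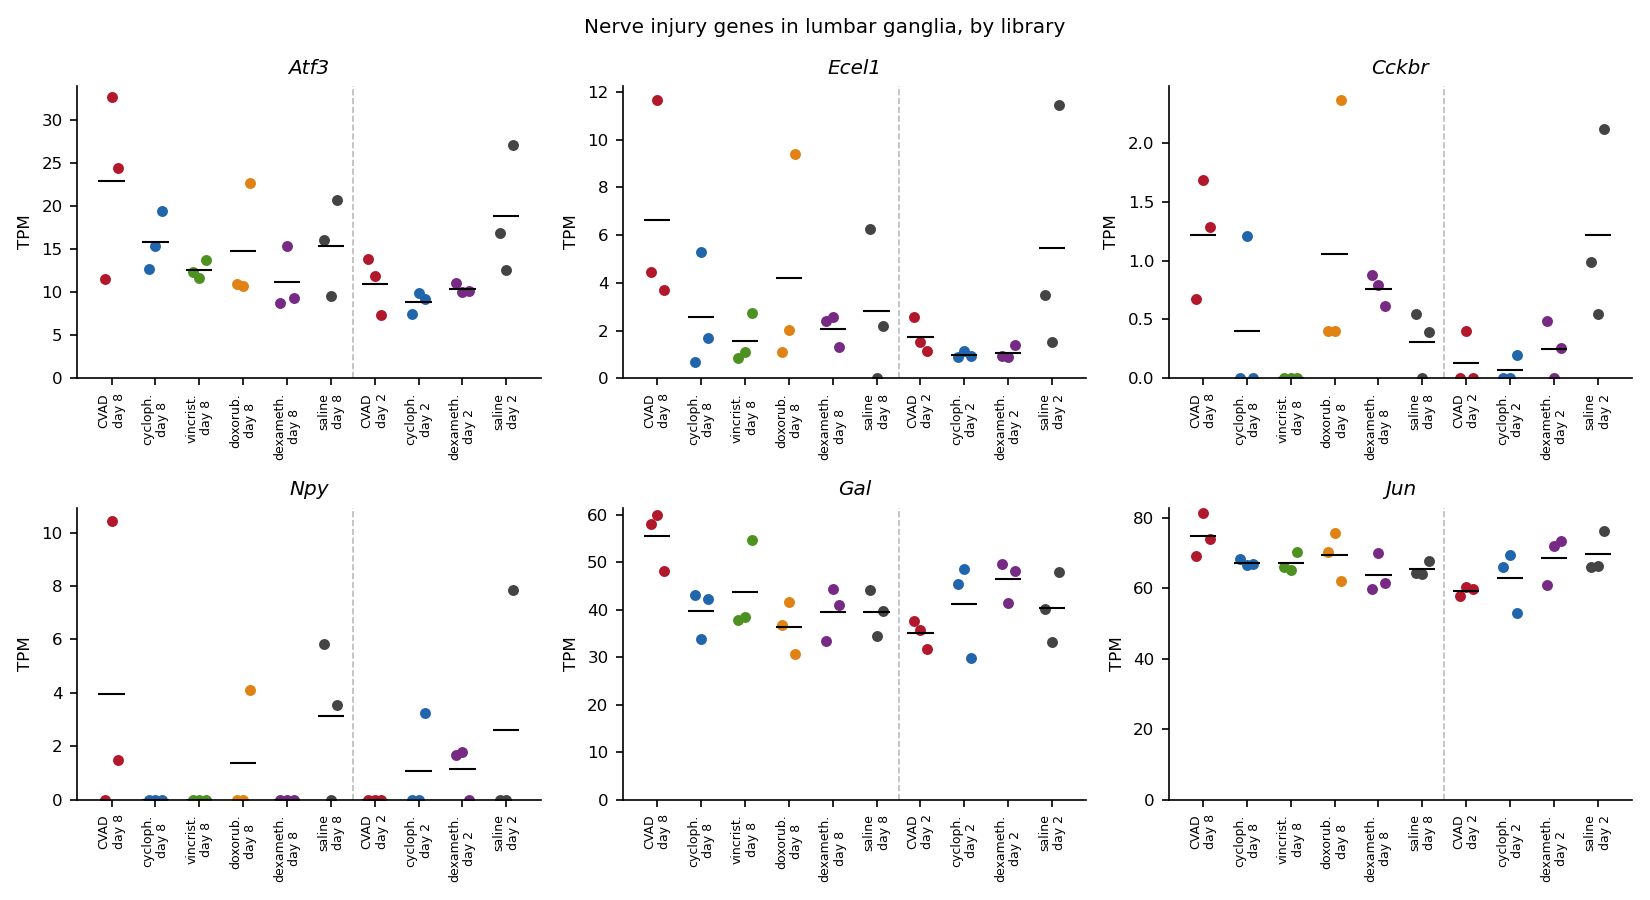
TPM of 6 genes (vertical axes, each from 0) in the 10 groups, with 1 point per library and a bar at the mean of 3; day 8 groups stand left of the dashed line and day 2 groups right of it. The 3 CVAD day 8 libraries lie above all saline day 8 libraries in Gal, Jun and Cckbr, and in Atf3, Ecel1 and Npy single libraries stand far above the others of their group.

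CVAD was first compared with saline on day 8. By group mean, Atf3, Sox11, Jun, Gal, Npy, Ecel1 and Flrt3 were each highest of all 10 groups in CVAD on day 8. Neighbouring groups in the order of means mostly lay within each other's spread: for Atf3, Sox11 and Gal 8 of 9 neighbouring pairs, and for the other 7 genes all 9, differed by no more than the larger SD of the pair. In Gal the pair beyond it was CVAD on day 8, at 55.5 ± 6.34 TPM, over dexamethasone on day 2, at 46.4 ± 4.38 TPM (SD, n = 3 each).

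Of the transcription factors, Atf3 had 11.5, 32.6 and 24.4 TPM in CVAD and 15.98, 9.53 and 20.7 TPM in saline on day 8. A pair of CVAD libraries were above every saline library and the other lay inside the saline range. The log2 fold change was 0.49 ± 0.33 (SE; limma, adjusted p = 0.934), and it changed to 0.18 when CVAD replicate 2 was left out and to 0.90 when CVAD replicate 1 was. Jun, the partner of Atf3 in AP-1 type complexes, had 69.3, 81.6 and 73.9 TPM in CVAD and 64.3, 64.2 and 67.8 TPM in saline. Its groups did not overlap, with a log2 fold change of 0.19 ± 0.094 (limma, adjusted p = 0.838). Sox11, a factor of neuronal growth, had 11.8, 15.2 and 16.6 TPM in CVAD and 13.5, 10.3 and 14.3 TPM in saline, so the groups overlapped. Its log2 fold change was 0.18 ± 0.15 (limma, adjusted p = 0.959), or 0.048 without saline replicate 2 and 0.31 when CVAD replicate 1 was left out.

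Among the neuropeptides, Gal had 58.1, 60.0 and 48.2 TPM in CVAD and 44.1, 34.6 and 39.7 TPM in saline on day 8. Every CVAD library was above every saline library, and the log2 fold change of 0.48 ± 0.17 (limma, adjusted p = 0.600) stayed between 0.39 and 0.58 when any 1 library was left out. Npy, which signals through Y receptors, was listed at 0, 10.4 and 1.47 TPM in CVAD and at 5.82, 0 and 3.55 TPM in saline. Both groups held a library at 0, and the fitted log2 fold change was −0.046 ± 0.85 (limma, adjusted p = 1). Cckbr, the cholecystokinin B receptor, had 0.675, 1.69 and 1.29 TPM in CVAD and 0.546, 0 and 0.390 TPM in saline. Its groups did not overlap, at levels near 1 TPM, and its log2 fold change was 0.75 ± 0.34 (limma, adjusted p = 0.792).

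Ecel1, the protease, had 4.46, 11.7 and 3.71 TPM in CVAD and 6.28, 0 and 2.18 TPM in saline on day 8. The highest saline library exceeded the lower pair of CVAD libraries. The log2 fold change of 1.27 ± 0.64 (limma, adjusted p = 0.845) was 0.52 without saline replicate 2, the library listed at 0. Flrt3 had 18.8, 24.03 and 23.3 TPM in CVAD and 21.3, 17.3 and 22.4 TPM in saline (log2 fold change 0.11 ± 0.12; limma, adjusted p = 0.971; 0.0057 to 0.22 with 1 library left out). Gadd45a had 27.9, 33.6 and 28.4 TPM in CVAD and 29.6, 23.4 and 33.5 TPM in saline (log2 fold change 0.066 ± 0.18; limma, adjusted p = 1). Gap43 had 122.9, 135.0 and 106.6 TPM in CVAD and 120.6, 130.8 and 115.8 TPM in saline (log2 fold change −0.016 ± 0.10; limma, adjusted p = 1). In these 3 genes the groups overlapped and the difference was at or below its SE.

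In CVAD on day 8, 0 of the 10 genes passed an adjusted p of 0.05, where 0% of the 25434 tested genes did; 2 of the 10 had an unadjusted p under 0.05, where 5.98% of all genes did. Of the 10, 8 had a positive log2 fold change and their median was 0.19, beside a median of 0.017 over all tested genes, of which 54.2% were positive. This count and median are not given without CVAD replicate 2. The CVAD libraries lay wholly above saline in 3 of the 10 (Gal, Jun and Cckbr), where 5.41% of all genes did, and wholly below in 0, where 4.58% did. The 11 sensory neuron markers were all lower in CVAD, with a median log2 fold change of −0.073, and 0 of them passed. Of 8 tested spinal cord genes 6 were higher (median 0.25), with sums of 14.6 to 24.2 TPM in CVAD and 10.2 to 34.8 TPM in saline. All 10 genes of the muscle list were higher (median 0.91), with sums of 213.2 to 560.7 TPM in CVAD and 84.98 to 542.1 TPM in saline. Among them Pvalb was near 0 (0.035 ± 0.24), with a far smaller SE than the others, such as Actn3 (0.28 ± 1.195). Whether the Pvalb RNA came from muscle was not tested, and the muscle sums include it. The part of these marker lists in the differences was not tested. In whole ganglia, fewer cells that express a gene and less RNA per cell cannot be told apart.

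**Figure D2:**
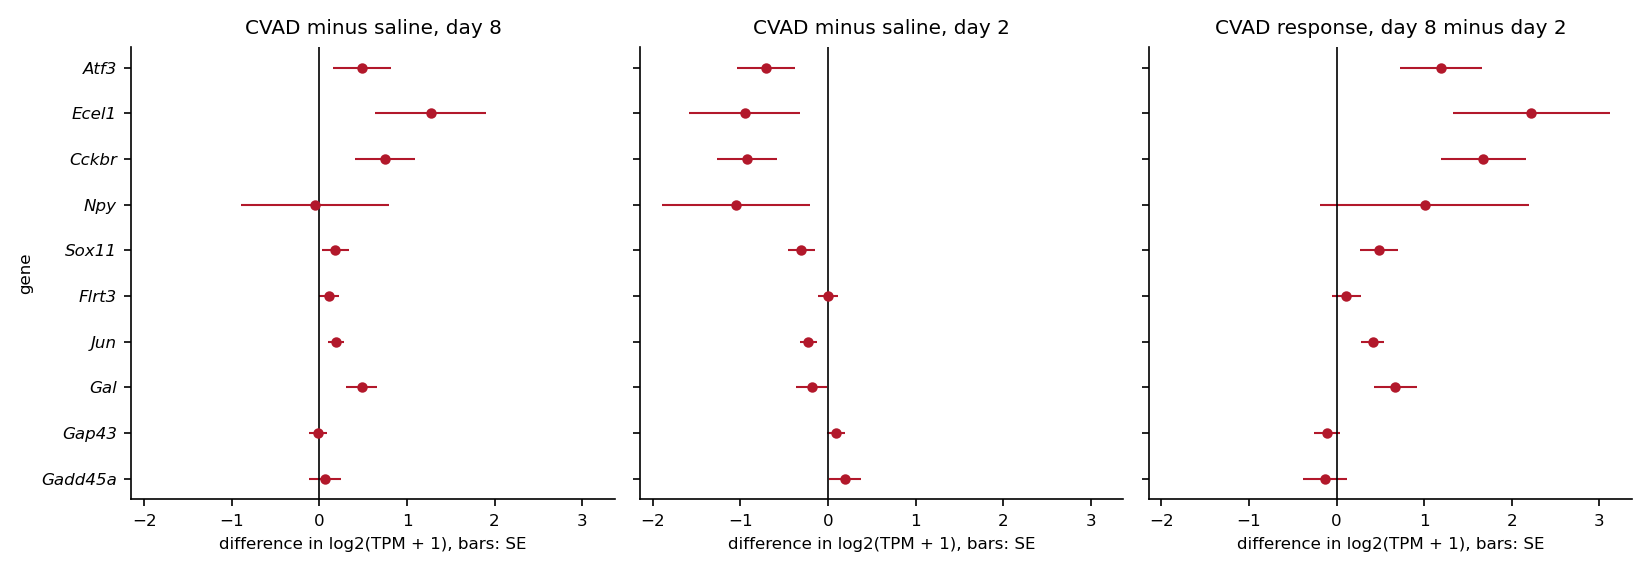
Fitted differences in log2(TPM + 1) of the 10 genes with their SE (horizontal bars), for CVAD minus saline on day 8, CVAD minus saline on day 2, and the day 8 difference minus the day 2 difference. Atf3, Ecel1, Cckbr, Sox11, Jun and Gal lie right of 0 on day 8 and left of 0 on day 2, and none of the 30 differences passed an adjusted p of 0.05.

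The single drugs were compared with the same saline libraries on day 8. Atf3 was at 12.7, 15.3 and 19.4 TPM in cyclophosphamide, 12.3, 11.6 and 13.7 TPM in vincristine, 10.9, 10.7 and 22.6 TPM in doxorubicin and 8.74, 15.3 and 9.27 TPM in dexamethasone, beside the 9.53 to 20.7 TPM of saline. With doxorubicin only replicate 3 was above the saline range, the library with the second highest sum of spinal cord genes. Gal was at 33.8 to 43.1 TPM in cyclophosphamide, 37.8 to 54.8 TPM in vincristine, 30.6 to 41.6 TPM in doxorubicin and 33.5 to 44.3 TPM in dexamethasone, and each of these ranges overlapped the 34.6 to 44.1 TPM of saline. Of the 10 genes 0 passed in any single drug, where 0.00786% of all genes passed with cyclophosphamide and 0% with each of vincristine, doxorubicin and dexamethasone. At an unadjusted p under 0.05 the count was also 0 of 10 for each drug, where 5.76% of all genes reached it with cyclophosphamide, 3.44% with vincristine, 3.35% with doxorubicin and 3.26% with dexamethasone.

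Npy and Cckbr were listed at 0 in many of these libraries. Npy was at 0 in all 3 libraries of cyclophosphamide, of vincristine and of dexamethasone, and at 0, 0 and 4.11 TPM in doxorubicin, against 5.82, 0 and 3.55 TPM in saline. It had the smallest p of the set with cyclophosphamide (limma, adjusted p = 0.885), vincristine (adjusted p = 1) and dexamethasone (adjusted p = 1), and no fold is given for it because of the zeros. Cckbr was at 0 in all 3 vincristine libraries and at 0, 1.21 and 0 TPM in cyclophosphamide. In doxorubicin it was at 0.401, 0.402 and 2.37 TPM, with a log2 fold change of 0.54 ± 0.34 (limma, adjusted p = 1) that was 0.12 without replicate 3. In dexamethasone Cckbr was at 0.875, 0.794 and 0.617 TPM, above every saline library, and it was the 1 gene of the set so placed, where 2.01% of all genes were. In the other 3 drugs 0 of the 10 lay wholly above saline, where 2.24% of genes did with cyclophosphamide, 3.46% with vincristine and 2.44% with doxorubicin; without doxorubicin replicate 3 the count there was 1. Wholly below saline lay 0 of the 10 in all 4 drugs, where 7.25% of genes did with cyclophosphamide, 2.72% with vincristine, 3.55% with doxorubicin and 4.51% with dexamethasone.

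Over the set, the single drugs gave medians near 0 on day 8. With cyclophosphamide 6 of 10 were positive, where 37.9% of all genes were (median log2 fold change 0.010, against −0.041 over all genes). With vincristine, doxorubicin and dexamethasone 3 of 10 were, where 54.7%, 43.9% and 43% of all genes were. Their medians were −0.077, −0.040 and −0.070, against 0.016, −0.018 and −0.023 over all genes. These 3 counts were 2, 4 and 3 after median-ratio scaling and 2, 5 and 3 after protein-coding scaling, and without doxorubicin replicate 3 its count was 4 and its median −0.029.

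CVAD was also set against each of its parts on day 8. All 10 genes were higher in CVAD than in cyclophosphamide, doxorubicin or dexamethasone, where 66%, 59.6% and 60.9% of all genes were. Against vincristine 9 were higher, where 49.6% of all genes were. The count against doxorubicin was 9 after either other scaling. These comparisons share the CVAD libraries, with replicate 2 among the 3 highest of the 30 libraries in 9 of the 10 genes. No count or median of the set is given without that library. The median log2 fold changes of the set were 0.33 against cyclophosphamide, 0.31 against vincristine, 0.23 against doxorubicin and 0.29 against dexamethasone, beside 0.064, 0, 0.035 and 0.040 over all genes. In each comparison 0 of the 10 passed, where 0% of all genes did; an unadjusted p under 0.05 was reached by 2 of the 10 against cyclophosphamide (5.34% of all genes), 3 against vincristine (3.48%), 1 against doxorubicin (4.8%) and 4 against dexamethasone (4.94%). Without doxorubicin replicate 3 the set had 9 genes higher in CVAD than in doxorubicin and a median of 0.38.

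Gal was the gene that stood out against most of the parts. Its log2 fold change in CVAD was 0.60 ± 0.17 against doxorubicin (limma, adjusted p = 0.658; 0.49 without doxorubicin replicate 3), 0.47 ± 0.17 against cyclophosphamide (adjusted p = 0.908) and 0.48 ± 0.17 against dexamethasone (adjusted p = 0.805). Atf3 differed by 0.90 ± 0.33 against dexamethasone (limma, adjusted p = 0.833) and by 0.70 ± 0.33 against vincristine (adjusted p = 1). These were 0.59 and 0.40 without CVAD replicate 2, and 1.31 and 1.11 without CVAD replicate 1. Cckbr differed by 0.74 ± 0.34 against cyclophosphamide (limma, adjusted p = 0.914), and against vincristine, where it was listed at 0 throughout, its adjusted p was 1. The remaining genes with an unadjusted p under 0.05 were Ecel1 against vincristine (log2 fold change 1.50 ± 0.64; limma, adjusted p = 1), and Jun and Flrt3 against dexamethasone (0.23 ± 0.094, adjusted p = 0.915, and 0.28 ± 0.12, adjusted p = 0.925).

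On day 2 Atf3, Ecel1, Cckbr, Sox11, Jun and Gal had negative fitted differences between CVAD and saline, none past the threshold. Atf3 had 13.8, 11.8 and 7.32 TPM in CVAD, 7.47, 9.85 and 9.14 TPM in cyclophosphamide and 11.04, 10 and 10.1 TPM in dexamethasone, against 16.8, 12.6 and 27.1 TPM in saline. All 6 single-drug libraries were below every saline library, and 1 CVAD library was not. The log2 fold changes were −0.70 ± 0.33 in CVAD (limma, adjusted p = 0.600), −0.96 ± 0.33 in cyclophosphamide (adjusted p = 0.528) and −0.74 ± 0.33 in dexamethasone (adjusted p = 0.920). Without saline replicate 3 they were −0.42, −0.67 and −0.45. The 3 comparisons share their saline libraries and are not independent of each other.

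Ecel1 on day 2 was at 2.58, 1.53 and 1.13 TPM in CVAD, 0.909, 1.15 and 0.918 TPM in cyclophosphamide and 0.924, 0.905 and 1.39 TPM in dexamethasone, against 3.48, 1.50 and 11.5 TPM in saline. Its log2 fold change was −1.38 ± 0.64 in cyclophosphamide (limma, adjusted p = 0.655) and −1.33 ± 0.64 in dexamethasone (adjusted p = 0.922), and −0.75 and −0.70 without saline replicate 3. Cckbr was at 0, 0.401 and 0 TPM in CVAD, 0, 0 and 0.200 TPM in cyclophosphamide and 0.488, 0 and 0.260 TPM in dexamethasone, against 0.986, 0.547 and 2.12 TPM in saline. Every drug library of Cckbr lay below every saline library. Its log2 fold changes were −0.92 ± 0.34 in CVAD (limma, adjusted p = 0.424), −0.999 ± 0.34 in cyclophosphamide (adjusted p = 0.506) and −0.78 ± 0.34 in dexamethasone (adjusted p = 0.891), and −0.65, −0.72 and −0.51 without saline replicate 3. With no overlap, leaving out a library could not turn the direction, so the kept sign is no separate support.

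Jun on day 2 had 57.8, 60.5 and 59.7 TPM in CVAD and 66.1, 66.4 and 76.4 TPM in saline, with no overlap. Its log2 fold change was −0.22 ± 0.094 (limma, adjusted p = 0.515) and −0.16 without saline replicate 3. Sox11 had 10.8, 10.6 and 10.5 TPM in CVAD and 13.1, 11.04 and 16.5 TPM in saline, also with no overlap. Npy was listed at 0 in all 3 CVAD libraries, at 0, 0 and 3.24 TPM in cyclophosphamide and at 1.67, 1.79 and 0 TPM in dexamethasone, against 0, 0 and 7.87 TPM in saline. In Gal, Gap43, Gadd45a and Flrt3 each drug overlapped saline on day 2.

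Of the 10 genes 0 passed against saline on day 2, where 0.0432% of all genes passed in CVAD, 0.0118% in cyclophosphamide and 0.00393% in dexamethasone; 3 of 10 had an unadjusted p under 0.05 in each, where 8.19% of all genes did in CVAD, 7.51% in cyclophosphamide and 5.37% in dexamethasone. In CVAD 2 of the 10 were positive (median log2 fold change −0.26, against 0.069 over all genes). In cyclophosphamide 3 were (−0.18 against 0.062), or 1 of 10 after either other scaling, and in dexamethasone 2 (−0.084 against 0.057). Of all genes 65.9%, 64.7% and 65.3% were positive in CVAD, cyclophosphamide and dexamethasone. Without saline replicate 3 the counts were 3, 4 and 5 and the medians −0.11, −0.074 and −0.019, against 0.11, 0.10 and 0.098 over all genes. Wholly below saline lay 3 of the 10 in CVAD (Cckbr, Jun and Sox11), where 2.27% of all genes did, 3 in cyclophosphamide (Atf3, Cckbr and Ecel1), where 2.95% did, and the same 3 in dexamethasone, where 1.88% did. Wholly above saline lay 0 of the 10, where 11.3%, 8.52% and 7.03% of all genes did in CVAD, cyclophosphamide and dexamethasone; without saline replicate 3 the count was 2 in dexamethasone. Of 8 tested spinal cord genes 5 were lower in CVAD (median log2 fold change −0.22), and all 8 in cyclophosphamide (−1.36) and in dexamethasone (−1.16). These medians include saline replicate 3. The list summed to 24.2 to 63.1 TPM in CVAD, 8.26 to 19.8 TPM in cyclophosphamide and 10.1 to 23.2 TPM in dexamethasone. In saline replicates 1, 2 and 3 it summed to 16.8, 49.1 and 108.3 TPM, so each drug overlapped saline, with Aqp4 at 0 throughout. Only saline replicate 3 lay above the CVAD range. The part of these genes in the day 2 differences was not tested. Between CVAD and its parts on day 2, 0 of the 10 passed, where 0.00393% of all genes did against cyclophosphamide and 0% against dexamethasone. An unadjusted p under 0.05 was reached by 0 of the 10 against cyclophosphamide (3.83% of all genes) and 2 against dexamethasone (3.66%). Against dexamethasone Jun was at −0.21 ± 0.094 and Gal at −0.39 ± 0.17 on the log2 scale (limma, adjusted p = 1 for both), and against cyclophosphamide the smallest p of the set was that of Flrt3 (0.14 ± 0.12, adjusted p = 1).

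The difference between the days was tested directly, as the response to a drug on day 8 minus that on day 2. For CVAD 6 of the 10 genes had an unadjusted p under 0.05, all of them positive, where 8.63% of all genes had such a p in either direction. The largest in size was Ecel1 (2.22 ± 0.90; limma, adjusted p = 0.432), and the smallest p was that of Cckbr (1.68 ± 0.48, adjusted p = 0.189). Atf3 differed by 1.19 ± 0.47 (limma, adjusted p = 0.418), Gal by 0.67 ± 0.24 (adjusted p = 0.358), Sox11 by 0.49 ± 0.22 (adjusted p = 0.519) and Jun by 0.41 ± 0.13 (adjusted p = 0.259). Of the 10, 0 passed, where 0.0826% of all genes did. Positive differences were found in 8 of the 10, where 42.2% of all genes had one, and in 7 without saline day 2 replicate 3. The median of the set was 0.58, beside −0.046 over all genes, and was 0.35 beside −0.087 without that library. The count of 6 with a small p is not given without it. When any 1 library was left out, all 6 differences kept their sign, and none fell below 0.34. The 6 genes were picked for a small p in these same data, so the kept sign is no separate support. The lowest values were 0.34 for Sox11, 0.35 for Jun, 0.54 for Gal and 1.40 for Cckbr, each without saline day 2 replicate 3. They were 0.88 for Atf3 without CVAD day 8 replicate 2 and 1.47 for Ecel1 without saline day 8 replicate 2.

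The other drugs measured on both days gave fewer such genes. For cyclophosphamide 2 of the 10 had an unadjusted p under 0.05, where 9.55% of all genes did: Atf3 (1.04 ± 0.47; limma, adjusted p = 0.491) and Cckbr (1.01 ± 0.48, adjusted p = 0.511), which were 0.75 and 0.73 without saline day 2 replicate 3. For dexamethasone 1 did, where 4.92% of all genes did: Cckbr (1.23 ± 0.48; limma, adjusted p = 0.932), at 0.95 without that library. In both, 0 of the 10 passed, where 0% of all genes did. All 3 day differences use the same saline libraries, and these were also compared between the days. Saline on day 8 against saline on day 2 gave 0 genes of the set past the threshold, where 0.00393% of all genes passed, and 1 with an unadjusted p under 0.05, where 6.93% of all genes had one: Cckbr (log2 fold change −0.72 ± 0.34; limma, adjusted p = 0.709), which was −0.44 without saline day 2 replicate 3. All 8 tested spinal cord genes were lower in saline on day 8 than on day 2 (median −1.06), and whether they take part in the day differences was not tested.

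**Figure D3:**
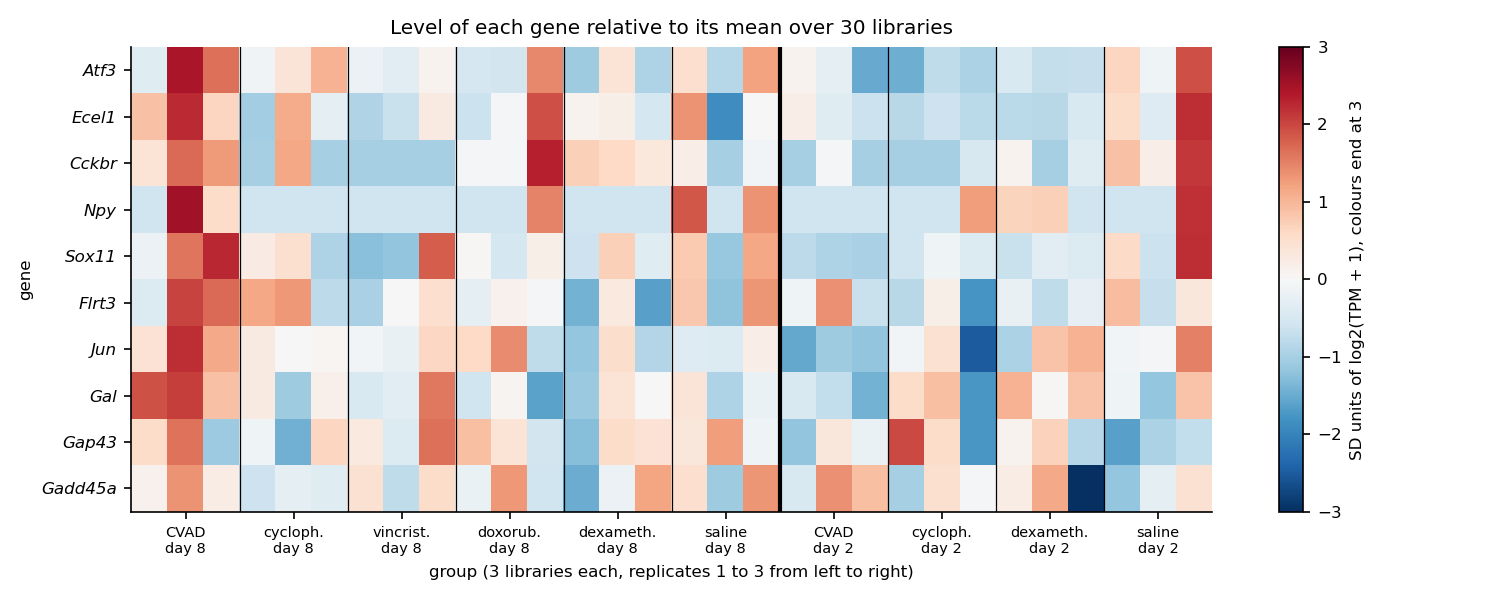
Level of each of the 10 genes (rows) in each of the 30 libraries (columns, in groups of 3, day 8 left of the thick line), in SD units of log2(TPM + 1) around the gene's mean over all libraries, with red above and blue below the mean. CVAD day 8 replicate 2 is red in all 10 rows, and saline day 2 replicate 3 is red in the upper rows and blue in Gap43.

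Much of the variation of these genes was between libraries of the same group. CVAD day 8 replicate 2 was among the 3 highest of the 30 libraries in 9 of the 10 genes, all but Sox11. Saline day 2 replicate 3 was among them in 6 (Atf3, Sox11, Jun, Npy, Cckbr and Ecel1), CVAD day 8 replicate 3 and vincristine day 8 replicate 3 in 3 each, and doxorubicin day 8 replicate 3 in 2 (Cckbr and Ecel1). The spinal cord sum ranked first in saline day 2 replicate 3 and second in doxorubicin day 8 replicate 3, but was 24.2 TPM, rank 11, in CVAD day 8 replicate 2. Of the other marker sums, that CVAD library ranked 2 for satellite glia (817.4 TPM), 4 for myelinating Schwann cells (1759 TPM), 4 for sensory neurons (2586 TPM), 5 for macrophages (258.7 TPM) and 15 for muscle (377.9 TPM). The part of these cell types in its levels was not tested.

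Of the set, 5 genes correlated with Atf3 at over 0.6. Over the 30 libraries, which share the scaling of TPM, the Pearson correlation of Atf3 in log2(TPM + 1) was 0.77 with Ecel1, 0.72 with Sox11, 0.67 with Flrt3, 0.66 with Cckbr and 0.63 with Npy. Within groups, after each group's mean was removed, these were 0.69, 0.63, 0.56, 0.64 and 0.74. Without the pair of libraries highest in spinal cord genes they were 0.70, 0.69, 0.74, 0.55 and 0.52. Without the pair farthest from the median of Atf3 they were 0.64, 0.61, 0.63, 0.52 and 0.40. Pairs among these 5 were as low as 0.32 (Npy and Flrt3), and Npy was above 0 in only 9 libraries. Ecel1 and Cckbr were the most alike pair, at 0.82, or 0.74 without the pair of libraries highest in spinal cord genes. Both also followed the spinal cord sum, at 0.58 for Ecel1 and 0.52 for Cckbr (0.37 and 0.27 without those libraries). For Atf3 this correlation was 0.27 (0.0064 without them). Within the 12 libraries of day 2 it was 0.695 for Ecel1, 0.56 for Cckbr and 0.65 for Atf3. Over all, 39 of the 45 pairs in the set were positive.

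**Figure D4:**
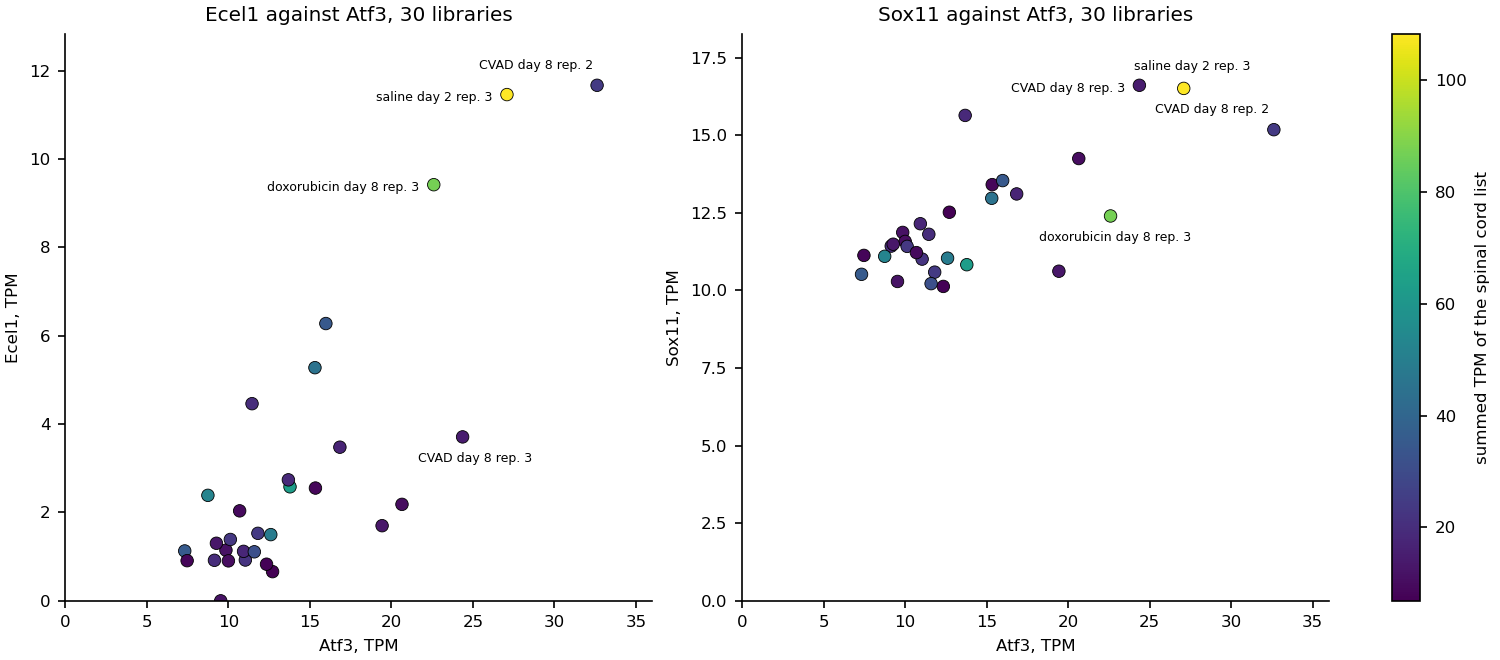
TPM of Ecel1 (left) and Sox11 (right) against TPM of Atf3 in the 30 libraries, coloured by the summed TPM of the spinal cord genes. CVAD day 8 replicate 2, at 32.6 TPM of Atf3 and a spinal cord sum of 24.2 TPM, lies beside saline day 2 replicate 3, at 27.1 and 108.3 TPM.

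Jun, Gal and Gap43 were less closely tied to Atf3 by these correlations. Jun and Gal correlated at 0.67 with each other (0.64 within groups), and with Atf3 at 0.48 and 0.31 (0.22 for each within groups). Jun also correlated at 0.56 with Sox11, 0.50 with Flrt3 and 0.37 with Gap43. Gap43 correlated at −0.10 with Atf3 and at 0.86 with the summed sensory neuron markers (0.95 within groups, 0.81 without the 2 libraries of most extreme marker sums). For Atf3 the correlation with these neuronal markers was −0.12, for Jun 0.42 (0.57 within groups) and for Gal 0.43 (0.58 within groups). With the satellite glia sum it was 0.66 for Gap43, 0.52 for Gal, 0.38 for Jun and 0.14 for Atf3. Gadd45a correlated with no other gene of the set above 0.35.

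**Figure D5:**
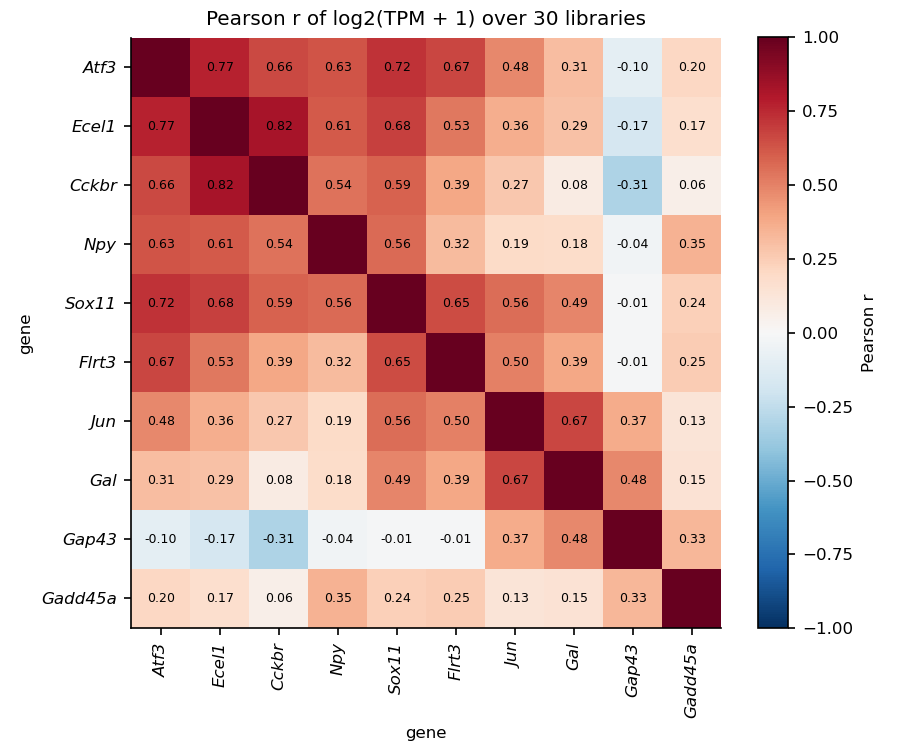
Pearson correlation of log2(TPM + 1) over 30 libraries for each pair of the 10 genes (numbers in the cells; red positive, blue negative). Atf3, Ecel1, Cckbr, Npy, Sox11 and Flrt3 have positive values with each other in the upper left, from 0.32 to 0.82, and Gap43 is near or below 0 with most of that block.

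Genes outside the set that followed it were ranked over 14823 protein-coding genes. For Atf3 the 3 most alike were Ecel1 (0.77), Gpr151 (0.73), an orphan receptor of sensory neurons, and Sox11 (0.72), and its 10 most alike genes held 5 of the set. For Sox11 they were Alkal2 (0.73), a ligand of the ALK receptor, Atf3 (0.72) and Bdnf (0.70), a neurotrophin. For Npy they were Atf3 (0.63), Tprg (0.62) and Avpr1a (0.62), a vasopressin receptor. For Gal they were Arhgap39 (0.80), Bend4 (0.80) and Nt5dc3 (0.79), and for Gap43 they were Fez1 (0.96), a protein of axonal transport, Idh1 (0.93) and Nptxr (0.92), with no gene of the set among the 10 most alike of either. These are descriptions over 30 libraries of 1 table.

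The wider injury program was read from lists of related genes in CVAD against saline on day 8, and 0 genes of these lists passed in any of the 18 comparisons. Of 25 other nerve injury genes 21 were tested and 16 were higher, where 54.2% of all genes were. Their median log2 fold change was 0.16 against 0.017 over all genes. Nts, the neuropeptide neurotensin, averaged 16.6 ± 5.91 TPM in CVAD and 10.5 ± 1.78 TPM in saline (SD, n = 3 each), with a log2 fold change of 0.58 ± 0.23 (limma, adjusted p = 0.714). Gpr151 had 2.15, 5.77 and 2.19 TPM in CVAD and 2.57, 0.748 and 1.67 TPM in saline (0.68 ± 0.33, adjusted p = 0.836), and its highest library was again CVAD replicate 2. In CVAD against saline on day 2 this list had members on both sides of 0. Its smallest p values there were those of Anxa1 (0.37 ± 0.17) and Gpr151 (−0.60 ± 0.33). Sprr1a, a marker of axotomised neurons, was listed at 0 in every library of the series.

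The other lists covered regulators, growth proteins and binding partners, with members on both sides of 0 in CVAD on day 8. Of 7 tested kinases of the DLK and JNK pathway, which signals from injured axons to Jun, 3 were higher (median −0.011), with Map3k13, the kinase LZK, at 0.16 ± 0.11 and Map2k7 at −0.053 ± 0.091. Of 9 relatives of Jun and Atf3, 6 were higher (median 0.034), with Fos at −0.497 ± 0.39 and Fosl2 at 0.16 ± 0.15. Of 10 immediate early genes, which include Fos, 4 were higher (median −0.021), with Btg2 at −0.43 ± 0.19 (limma, adjusted p = 0.780) and Npas4 at −0.48 ± 0.28. Of 4 relatives of Sox11 and Gadd45a 1 was higher, Gadd45g, at 0.34 ± 0.20, and Gadd45b was at −0.19 ± 0.18. Of 12 axon growth proteins 3 were higher (median −0.050), with Crmp1 at −0.061 ± 0.093 and Basp1 at −0.072 ± 0.11, which like Gap43 (−0.016) lay within their SE. Of 14 tested ligands and receptors of the set's proteins 5 were higher (median −0.013), with Robo1, a guidance receptor that FLRT3 binds, at 0.34 ± 0.14 (limma, adjusted p = 0.726) and Adgrl3, a latrophilin partner of FLRT3, at −0.14 ± 0.10.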

How the data were processed

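Per the labels, total RNA was depleted of ribosomal RNA and made into stranded libraries. Tools listed in the submitters' processing notes are StringTie 2.2.1, STAR 2.7.10b and FastQC 0.12.1; of the builds listed there, GRCm39 and mm10, no role is stated. The deposited table holds the authors' TPM per gene, and its 30 columns sum to 999910 to 999941; depth is unknown. No gene coordinates from it are printed.

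Genes with at least 1 TPM in at least 3 libraries (25434, with all 10 of the set) were tested as log2(TPM + 1), a scale that understates changes of low genes. In limma 3.58.1 (R 4.3.3), 1 model with a mean per group and a variance trend was fitted to 30 libraries (20 residual degrees of freedom). P-values are 2-sided and adjusted by Benjamini-Hochberg over all tested genes within each of 18 comparisons (threshold 0.05). The code was tested on simulated data.

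The genes of the set, the lists and the tests were chosen with earlier results of these data known. Fold changes are given for all 10 genes in CVAD on day 8, and elsewhere for genes with an unadjusted p under 0.05, or else the smallest p; of each list, the 2 genes of smallest p are named, and Sprr1a was added after its values were seen. Alternatives were a pseudocount of 0.1, no filter, median-ratio or protein-coding scaling, a model per day, quality weights, and leaving out each library; correlations without 2 libraries, and counts and medians of the set without each of them, were added after the data were seen.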

Additional observations from a re-analysis of the deposited data

How the results depend on the processing

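Of the 10 genes 0 passed the threshold in all 230 pairs of comparison and alternative. Of 593 alternative values of the 46 named log2 fold changes, 584 kept their direction. Those that turned were all in CVAD against saline on day 8: Gap43 was 0.032 with library quality weights and ran from −0.094 to 0.075 with 1 library left out, Gadd45a from −0.072 to 0.18, and Npy from −0.9995 to 0.76. The cause was not tested. The log2 fold changes of low genes grew with a pseudocount of 0.1, and Cckbr in CVAD on day 8 reached 1.97.

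Counts over all genes moved more: in CVAD on day 2 the 11 called genes became 1 to 98 under the other settings and 0 to 4 with 1 library left out, in cyclophosphamide on day 2 the 3 became 0 to 50 and 0 to 2, in dexamethasone on day 2 the 1 became 0 to 76 with 1 library left out, and for the CVAD day difference the 21 became 11 to 86 and 0 to 24. The cyclophosphamide day difference had 0 and up to 42. In the remaining comparisons the counts stayed between 0 and 6.

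No paired analysis was possible because the replicate numbers follow accession order and pair no samples. The unknown depth limits most what can be said of Npy, Cckbr and Ecel1.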

Other observations

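Immediate early genes, which neurons and other cells switch on within minutes of a stimulus, are given here for the single drugs. On day 8 vincristine had 0 of 10 higher than saline (median log2 fold change −0.18), cyclophosphamide 1 (−0.21), doxorubicin 3 (−0.10) and dexamethasone 8 (0.063), where 54.7%, 37.9%, 43.9% and 43% of all genes were higher. On day 2 dexamethasone had 9 of 10 higher (0.32) and cyclophosphamide 8 (0.15), where 65.3% and 64.7% of all genes were. None of these genes passed in limma, the smallest adjusted p being 0.703 among these 6 comparisons, and those of 1 day share saline libraries.

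Most axon growth proteins and sensory neuron markers were higher than in saline with the single drugs on day 2, as were most genes. With cyclophosphamide 11 of 12 growth proteins (median 0.086) and 11 of 11 neuronal markers (0.090) were higher than in saline. With dexamethasone these were 9 of 12 (0.053) and 10 of 11 (0.051). The medians over all genes were 0.062 and 0.057, and 64.7% and 65.3% of all genes were higher. After median-ratio scaling those medians over all genes were −0.00038 and −0.0015. The lists are not given after that scaling or without saline replicate 3. In CVAD both lists had members on either side of 0. Examples are Basp1 (0.089) and Tubb3 (−0.13) among growth proteins, and Isl1 (0.15) and Nefh (−0.097) among neuronal markers. None passed in limma.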
